A study of Mus musculus with 4 samples.

Results

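Genes that mark bile duct cells, keratin filaments and liver progenitor cells were followed in mouse primary hepatocytes lacking Prom1 (KO) and in wild-type (WT) hepatocytes. The set comprises 9 genes, chosen by name: the keratin genes Krt7, Krt8, Krt18 and Krt19, and Epcam, Sox9, Spp1, Cd44 and Kit. All 9 were found among the 22079 genes of the deposited table. The KO group was 2 libraries of hepatocytes from Prom1-/- mice and the WT group was 2 libraries from wild-type mice, all C57BL/6 males aged 8 weeks, with replicates described as biological. In both groups the cells attached for 4 hours in medium with 10% serum and 10 nM dexamethasone and were then kept overnight without serum. The comparison addresses how the loss of Prom1 alters the transcriptome under these conditions.

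Keratins are intermediate filament proteins that assemble as obligate pairs of a type I and a type II chain. Hepatocytes build their filaments from keratin 8 (type II) and keratin 18 (type I), whereas cholangiocytes, the epithelial cells of the bile ducts, add keratin 7 and keratin 19. EPCAM is an adhesion protein of the biliary epithelium, SOX9 a transcription factor of bile duct cells and of the hepatocytes next to the portal tracts, and osteopontin (Spp1) a secreted matrix protein that biliary and some immune cells make. CD44 is a hyaluronan receptor and KIT the receptor for stem cell factor; both have been used to mark progenitor cells and are also found on other liver cells. Prom1 encodes prominin-1 (CD133), itself a marker of bile duct and progenitor cells.

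Sequences upstream of 5 members are shown because they stand for the 3 kinds of pattern described below: the keratin pair whose values lay close together, a biliary gene that was well expressed beside one that was nearly undetected, and the tested member with the largest difference between genotypes. RefSeq windows (GRCm38.p6) were found for 7 of the 9 members, and the stretch before the start that holds no annotated exon of the gene is printed 5′ to 3′. Capitals mark matches on either strand to the TATA box letters TATAAA, to the CCAAT box, to the GC box written GGGCGG, to the AP-1 motif written TGANTCA and to the nuclear receptor half-site written AGGTCA, also as part of the longer run TTAGGTCA, which overlaps it.
Krt8 (chr15:102004483-102004592, minus strand): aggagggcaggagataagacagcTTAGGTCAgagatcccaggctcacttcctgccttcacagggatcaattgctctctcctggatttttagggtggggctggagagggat
Krt18 (chr15:102027966-102028179, plus strand): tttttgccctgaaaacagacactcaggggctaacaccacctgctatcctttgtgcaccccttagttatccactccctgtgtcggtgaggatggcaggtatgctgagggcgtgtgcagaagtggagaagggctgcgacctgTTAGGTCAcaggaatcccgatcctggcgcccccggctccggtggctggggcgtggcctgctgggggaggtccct
Spp1 (chr5:104434861-104435110, plus strand): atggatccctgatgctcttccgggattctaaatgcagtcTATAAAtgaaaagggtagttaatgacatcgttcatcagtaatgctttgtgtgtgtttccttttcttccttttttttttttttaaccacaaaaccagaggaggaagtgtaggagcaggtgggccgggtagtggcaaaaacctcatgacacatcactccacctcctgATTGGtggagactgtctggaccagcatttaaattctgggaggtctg
Epcam (chr17:87635729-87635978, plus strand): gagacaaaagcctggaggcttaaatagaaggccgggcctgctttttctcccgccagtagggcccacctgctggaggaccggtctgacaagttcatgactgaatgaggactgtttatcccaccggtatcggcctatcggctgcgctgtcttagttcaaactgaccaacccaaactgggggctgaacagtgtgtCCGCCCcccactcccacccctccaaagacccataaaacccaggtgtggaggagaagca
Cd44 (chr2:102901666-102901915, minus strand): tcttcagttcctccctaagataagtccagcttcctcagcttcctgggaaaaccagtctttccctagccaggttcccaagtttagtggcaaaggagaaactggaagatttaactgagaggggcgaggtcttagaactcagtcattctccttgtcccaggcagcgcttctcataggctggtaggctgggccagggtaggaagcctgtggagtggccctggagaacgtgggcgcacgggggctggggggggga
The Krt8 and Krt18 windows each held TTAGGTCA once, on the strand of the gene. This motif was searched after the sequences had been read, and 0.6% of 32851 promoter windows of 250 bases hold it on either strand; AGGTCA alone is in 14.0% of them. The first of 2 Spp1 windows held the TATA box letters and, separately, the CCAAT box, present in 12.4% and 33.8% of all windows, and the Epcam window held GGGCGG, present in 32.7%. No letters searched were found in the Cd44 window, and TGANTCA, present in 6.7% of all windows, was found for none of the 7 members. Such matches describe the letters and are not evidence of a binding site.

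The values are FPKM (fragments per kilobase, corrected for library depth), so levels can be compared between genes. Steps between low values gave approximate depths of 17500000 and 14800000 fragments in KO 1 and KO 2 and of 18600000 and 15300000 in WT 1 and WT 2, so that 1 FPKM on a transcript of 2 kb rests on 26.7 to 33.5 fragments. Prom1 had no signal in KO 1 (listed at 0) and 0.0458 FPKM in KO 2, against 0.571 FPKM in WT 1 and 1.22 FPKM in WT 2. Differences are KO minus WT on the log2(FPKM + 1) scale, which understates the change of low genes, and were tested with limma over the 10407 genes that averaged 1 FPKM or more. No gene passed a Benjamini-Hochberg adjusted p of 0.05 (0%; lowest adjusted p = 0.239), 759 genes (7.29%) had an unadjusted p under 0.05, and in 38.1% of genes the libraries of the genotypes did not overlap. A permutation test of 2 libraries against 2 cannot go below an exact two-sided p of 0.33.

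Of the 9 members, 6 had a mean of at least 1 FPKM, namely Krt8, Krt18, Spp1, Sox9, Cd44 and Kit. Krt7, Krt19 and Epcam lay under this limit and were read from the same model fitted to the 15152 genes above 0 in some library. None of the 9 passed the adjusted threshold. The KO libraries exceeded the WT libraries without overlap for 3 of the 6 tested members, Krt8, Krt18 and Cd44, where 18.3% of all genes tested lay so, and for none did both lie below, where 19.8% lay so. The median difference of the 6 was 0.15, and that of all genes tested was -0.0011.

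**Figure D1:**
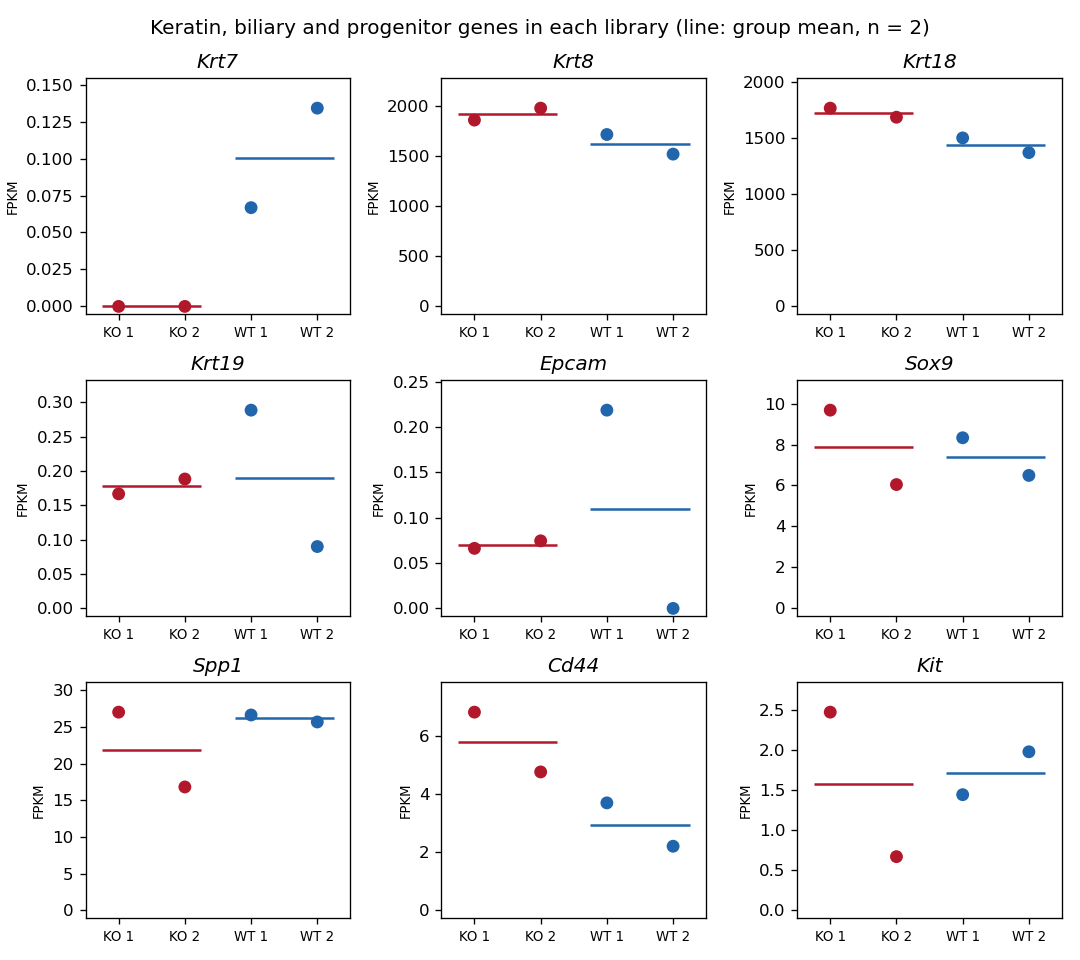
Values of the 9 genes in FPKM (vertical axes, linear, each gene on its own scale) in the 2 KO and 2 WT libraries; points are libraries and lines are group means. Krt8, Krt18 and Cd44 have both KO points above both WT points, Krt7 has both KO points at 0, and the other genes overlap.

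The hepatocyte keratins Krt8 and Krt18 were among the most abundant transcripts of the table, ranking 32 and 38 of 22079 genes by mean level. Krt8 stood at 1859.9 FPKM in KO 1 and 1979 FPKM in KO 2, against 1716 FPKM in WT 1 and 1520.2 FPKM in WT 2. Krt18 stood at 1765 FPKM in KO 1 and 1684 FPKM in KO 2, against 1499.9 FPKM in WT 1 and 1369 FPKM in WT 2. Both genes were thus somewhat higher in each KO library than in either WT library, by a ratio of the means of 1.19 for Krt8 and 1.20 for Krt18. The log2 difference was 0.25 for Krt8 (SE 0.16, limma adjusted p = 0.771) and 0.27 for Krt18 (SE 0.15, limma adjusted p = 0.740), so neither difference was distinguishable from the spread between libraries. The 95% intervals ran from -0.14 to 0.63 for Krt8 and from -0.098 to 0.63 for Krt18. Without WT 2 the difference was 0.16 for Krt8 and 0.20 for Krt18.

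The partners stayed near balance in every library. The ratio of the Krt8 level to the Krt18 level was 1.05 in KO 1 and 1.18 in KO 2, against 1.14 in WT 1 and 1.11 in WT 2. Krt8 was therefore the higher gene in 4 of 4 libraries, with the 2 WT ratios lying inside the span of the 2 KO ratios. On the log2 scale the ratio averaged 0.15 in KO and 0.17 in WT, a difference of -0.018. The genes are neighbours on chromosome 15 (mm10): Krt8 (ENSMUSG00000049382) occupies chr15:101996698-102004482 on the minus strand and Krt18 (ENSMUSG00000023043) chr15:102028180-102032027 on the plus strand, 23.7 kb apart. Krt8 overlaps a non-coding gene, Gm36026, read from the other strand; whether the counting used strand is unknown here, and the value is uncertain to that degree. A processed pseudogene, Krt8-ps, is annotated elsewhere and could share reads with Krt8.

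The other keratins were scarce. Krt7 (ENSMUSG00000023039), the type II keratin of bile ducts, lies 566 kb from Krt8 on the same chromosome (chr15:101411043-101430313, plus strand). It was listed at 0 in both KO libraries, against 0.0668 FPKM in WT 1 and 0.134 FPKM in WT 2. These WT values correspond to roughly 4.8 and 8.0 fragments on the longest coding transcript, of 4094 bases, and to fewer on a shorter one. The log2 difference of -0.14 (SE 0.046) had an unadjusted limma p of 0.0414 and an adjusted p of 0.755. Of the 15152 genes fitted, 6.55% had an unadjusted p under 0.05. Krt7 also overlaps Gm671 on the opposite strand. Krt19 (ENSMUSG00000020911, chr11:100140810-100148665, minus strand), its type I counterpart in ducts, stood at 0.167 FPKM in KO 1 and 0.188 FPKM in KO 2, against 0.288 FPKM in WT 1 and 0.0900 FPKM in WT 2. The KO values lay between the WT values, all resting on roughly 1.9 to 7.4 fragments, and the difference was -0.0094 (SE 0.095; limma adjusted p = 0.996). The Krt8 level was between 10516 and 11164 times that of Krt19 in KO libraries and between 5950 and 16894 times in WT libraries.

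Of 27 further keratin genes looked up, 19 were listed at 0 in all 4 libraries, among them Krt1, Krt14 and Krt16, and 7 more had a mean under 1 FPKM. Krt5, the highest of these 7, stood at 0.561 and 0.701 FPKM in KO 1 and KO 2, against 0.658 and 1.13 FPKM in WT 1 and WT 2. Only Krt10, a type I keratin best known from differentiating epidermis, reached a mean of 1 FPKM. Krt10 stood at 2.03 FPKM in KO 1 and 2.25 FPKM in KO 2, against 1.19 FPKM in WT 1 and 1.42 FPKM in WT 2, a log2 difference of 0.44 (SE 0.18; limma unadjusted p = 0.0474, adjusted p = 0.682).

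**Figure D2:**
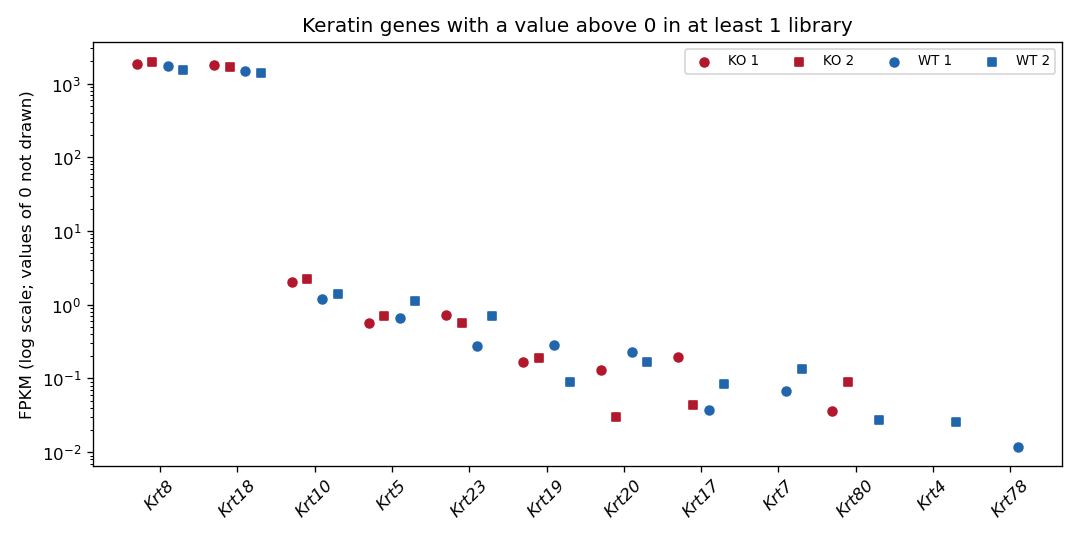
Levels of the 12 keratin genes detected in at least 1 library, in FPKM on a log axis; circles and squares are libraries 1 and 2, KO drawn left of WT, and values of 0 are not drawn. Krt8 and Krt18 lie at 1369 FPKM or more in all 4 libraries, while no other keratin gene exceeds 2.25 FPKM.

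Genes for proteins that anchor or accompany keratin filaments were read in a mixed list, which was divided in direction. The list also holds Vim, the lamin genes Lmna and Lmnb1, and Krtcap2 and Krtcap3, so its counts are not those of keratin partners alone. Of 17 tested genes of this list, 9 were higher and 8 lower in KO, and 0 passed the adjusted threshold. The median difference of 0.0088 was that of Lmnb1. The desmosomal plaque linker periplakin (Ppl) averaged 21.8 ± 3.91 FPKM in KO and 35.0 ± 4.75 FPKM in WT (SD, n = 2 each), a log2 difference of -0.66 (limma adjusted p = 0.536). Vim, which encodes the mesenchymal filament protein vimentin, averaged 20.0 ± 3.42 FPKM in KO and 12.5 ± 1.07 FPKM in WT (SD, n = 2 each), a difference of 0.63 (limma adjusted p = 0.525). Krtcap3, a gene named for its association with keratinocytes, differed by 0.68, and Sqstm1, the p62 autophagy adaptor found with keratins in hepatocyte inclusion bodies, by 0.33 (0.19 without WT 2). Over the whole list the KO libraries lay above the WT libraries without overlap for 5 genes and below them for 1, and 38.1% of the genes tested showed no overlap, one way or the other.

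Epcam (ENSMUSG00000045394, chr17:87635979-87651129, plus strand) was nearly undetected, like the ductal keratins. It stood at 0.0662 FPKM in KO 1 and 0.0745 FPKM in KO 2, against 0.219 FPKM in WT 1, and was listed at 0 in WT 2. Behind the non-zero values stood roughly 2.0 to 7.5 fragments, so no genotype difference was detectable at this depth (log2 difference -0.045, SE 0.11; limma adjusted p = 0.943). The 3 members most typical of biliary epithelium, Krt7, Krt19 and Epcam, were thus the lowest of the set in these libraries. The mean levels over all libraries ran, from high to low, Krt8, Krt18, Spp1, Sox9, Cd44, Kit, Krt19, Epcam and Krt7. Between neighbours in this order the library values overlapped for Krt8 and Krt18, Sox9 and Cd44, Cd44 and Kit, Krt19 and Epcam, and Epcam and Krt7, although within each of the 4 libraries the order held for the first 4 of these pairs.

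Among 26 further genes associated with cholangiocytes, 16 were tested, and 13 of these were higher and 3 lower in KO (median 0.17; 0 past the adjusted threshold). The KO libraries lay above the WT libraries without overlap for 7 of the 16 and below for 1, where 18.3% and 19.8% of all genes tested did. Several of the 26 genes are also expressed by hepatocytes. Cldn4, a tight junction claudin, averaged 38.2 ± 18.8 FPKM in KO and 18.0 ± 0.160 FPKM in WT (SD, n = 2 each), a log2 difference of 0.95 (limma unadjusted p = 0.0229, adjusted p = 0.598). KO 1 stood at 24.9 FPKM and KO 2 at 51.5 FPKM. The difference was 1.46 without KO 1 (limma adjusted p = 0.0403, with KO 2 as the lone KO library assumed to vary like the others) but 0.44 without KO 2 (adjusted p = 0.292), and the adjusted p was 0.610 without WT 1 and 0.9999 without WT 2. Anxa3, an annexin, differed by 0.66, but by 0.31 without KO 1 and 0.39 without WT 2. The water channel gene Aqp1 differed by 0.57, but by 0.125 without KO 1 and 0.106 without WT 2. Elf3, an epithelial ETS factor, differed by -0.36, and by -0.20 without WT 1. The secretin receptor gene Sctr was listed at 0 throughout, and 9 more of the 26 had a mean under 1 FPKM. Of 17 further progenitor and fetal liver genes in the table, 3 were tested, with Sox4 at 0.20 (0.052 without KO 1), Tnfrsf12a, the receptor for TWEAK, at 0.035 and Afp, alpha-fetoprotein, at -0.073, and 4 were listed at 0 in all libraries (Dlk1, Foxl1, Gpc3 and Thy1).

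Sox9 (ENSMUSG00000000567, chr11:112782224-112787760, plus strand) stood at 9.68 FPKM in KO 1 and 6.05 FPKM in KO 2, against 8.33 FPKM in WT 1 and 6.49 FPKM in WT 2. The WT values lay within the span of the KO values, and the log2 difference was 0.053 (SE 0.23, 95% interval -0.51 to 0.61; limma adjusted p = 0.979). Its direction turned with the library left out, to -0.25 without KO 1 and -0.11 without WT 2. Sox9 acts downstream of Notch signalling in the specification of bile duct cells, so genes of that pathway were read beside it. Of 12 tested, 8 were higher and 4 lower in KO (median 0.067; 0 past the adjusted threshold), and the receptor gene Notch2 (0.089), the ligand gene Jag1 (0.12) and the target gene Hes1 (-0.073) had small differences. The exception in size was Rbpj, the DNA-binding partner of the Notch intracellular domain, at 1.49 FPKM in KO 1 and 1.60 FPKM in KO 2, against 3.02 FPKM in WT 1 and 4.72 FPKM in WT 2. Its log2 difference was -0.92 (SE 0.21; limma unadjusted p = 0.00545, adjusted p = 0.525). Pseudogenes of Rbpj are annotated and could share its reads. Notch1 differed by -0.23 (-0.077 without WT 2), Dll4 by 0.24 (-0.027 without KO 1) and Ncstn, a subunit of gamma-secretase, by 0.18 (0.0042 without WT 1).

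Spp1 (ENSMUSG00000029304, chr5:104435118-104441050, plus strand) was the most abundant member after the hepatocyte keratins. It stood at 27.0 FPKM in KO 1 and 16.8 FPKM in KO 2, against 26.6 FPKM in WT 1 and 25.7 FPKM in WT 2. KO 2 alone was low, and KO 1 lay above both WT libraries. The log2 difference of -0.28 (SE 0.21; limma adjusted p = 0.813) became 0.045 without KO 2 and -0.61 without KO 1. Spp1 overlaps Gm42793 on the same strand, so reads of the 2 genes cannot be told apart with confidence. It lies 60.4 Mb from Prom1 on chromosome 5.

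Cd44 (ENSMUSG00000005087, chr2:102811141-102901665, minus strand) had the largest difference of the 6 tested members, and of all 9 with a pseudocount of 1. With a pseudocount of 0.1 it was at 0.97 and Krt7, under the filter, at -0.98. It stood at 6.83 FPKM in KO 1 and 4.77 FPKM in KO 2, against 3.71 FPKM in WT 1 and 2.21 FPKM in WT 2. Each KO library exceeded each WT library, and the ratio of the means was 1.96. The log2 difference was 0.79 (SE 0.25, 95% interval 0.19 to 1.39), with an unadjusted limma p of 0.0184 and an adjusted p of 0.586. The other 5 tested members had unadjusted p-values above 0.05. With the libraries left out in turn the difference ran from 0.52 without WT 2 to 1.07 without WT 1. Gene-level values do not separate the splice forms of Cd44, which has 9 annotated transcripts.

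Genes for receptors, ligands and linkers that act with osteopontin, CD44 or KIT were read as a list. Of 18 tested, 12 were higher and 6 lower in KO, with a median of 0.072 and 0 past the adjusted threshold; at an unadjusted p under 0.05, 5 were higher and 0 lower, where 3.1% of all genes tested were higher and 4.19% lower. CD44 is tied to actin by the ezrin, radixin and moesin proteins. Msn, encoding moesin, averaged 16.2 ± 4.73 FPKM in KO and 9.57 ± 0.151 FPKM in WT (SD, n = 2 each), a log2 difference of 0.68 (limma unadjusted p = 0.0139, adjusted p = 0.570), which was 0.39 without KO 1. Ezr, encoding ezrin, stood at 5.23 and 3.99 FPKM in KO 1 and KO 2, against 2.99 and 3.19 FPKM in WT 1 and WT 2 (0.45; limma unadjusted p = 0.0373, adjusted p = 0.660), with a difference of 0.29 without KO 1. Rdx, encoding radixin, the main member of this family in hepatocytes, was more abundant and differed by -0.068 (limma adjusted p = 0.899). Among osteopontin-binding integrin chains, Itga9 differed by 0.53, Itgav by 0.29 and Itgb5 by 0.24, and Itgb3 by -0.34 (-0.12 without KO 2). None of these 4 had overlapping libraries, as for 38.1% of all genes tested, and Itga5, at 0.10, did. Over the 18 tested genes of the list the KO libraries lay above the WT libraries without overlap for 6 and below them for 3. The shares of all genes tested were 18.3% and 19.8%. The hyaluronan synthase gene Has2 was listed at 0 in every library.

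Macrophages also carry CD44, and their markers were read beside it. Of 10 tested macrophage and Kupffer cell genes, 7 were higher and 3 lower in KO (median 0.16; 0 past the adjusted threshold), and the KO libraries lay above the WT libraries without overlap for 5 and below them for 1 (C1qa), where 18.3% and 19.8% of all genes tested did. The scavenger receptor gene Marco stood at 6.28 and 5.70 FPKM in KO 1 and KO 2, against 2.54 and 3.14 FPKM in WT 1 and WT 2 (log2 difference 0.87; limma adjusted p = 0.470). The lysozyme gene Lyz2 differed by 0.85, Cd5l by 0.70 and Adgre1, which encodes F4/80, by 0.47 (0.28 without KO 1). The complement genes C1qa (-0.14), C1qb (-0.043) and C1qc (-0.15) differed the other way, and the Kupffer cell lectin gene Clec4f (0.022) and the growth factor receptor gene Csf1r (0.047) had overlapping libraries. The summed level of the 13 listed markers was 436 and 504 FPKM in KO, against 385 and 381 FPKM in WT, most of it from the lysosomal gene Cd68, and none of them was listed at 0 throughout. Whether macrophages had a part in the values of Cd44 was not tested. In such bulk libraries fewer cells of a type and less RNA per cell cannot be told apart. Of 14 lymphocyte and neutrophil markers 0 reached a mean of 1 FPKM, and 8 were listed at 0 in all libraries.

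**Figure D3:**
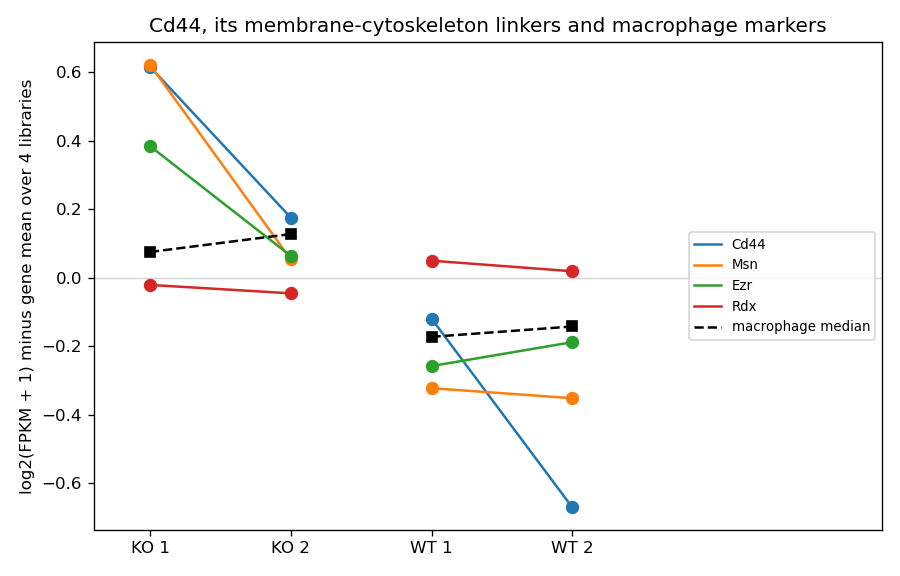
Cd44, the linker genes Msn, Ezr and Rdx (circles) and the median of 10 macrophage markers (squares, dashed) in each library, as log2(FPKM + 1) minus the gene's mean over the 4 libraries; lines join the libraries of a genotype. Cd44, Msn, Ezr and the macrophage median are above 0 in both KO libraries and below 0 in both WT libraries, and Rdx is the reverse within a narrow range.

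Kit (ENSMUSG00000005672, chr5:75574916-75656722, plus strand) was the tested member whose KO libraries lay farthest apart in ratio. It stood at 2.48 FPKM in KO 1 and 0.672 FPKM in KO 2, against 1.45 FPKM in WT 1 and 1.98 FPKM in WT 2. The KO libraries were the highest and the lowest of the 4, differing by a ratio of 3.69, and the log2 difference between genotypes was -0.16 (SE 0.36, 95% interval -1.06 to 0.73; limma adjusted p = 0.946). It was 0.36 without KO 2 and -0.69 without KO 1. Kit lies 31.6 Mb from Prom1 on chromosome 5. Its ligand gene Kitl differed by -0.060, with overlapping libraries.

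Mast cells depend on KIT, and their markers were read as well. Of 10 mast cell markers, 7 were listed at 0 in all libraries, including the tryptase gene Tpsb2, Cpa3 and Fcer1a. Hdc was the 1 marker tested (0.21, overlapping libraries, and 0.045 without KO 2). Of the 8 mesothelial markers, which include the members Krt7 and Krt19, 0 reached a mean of 1 FPKM. Markers of sinusoidal endothelial and stellate cells were present. Summed over each list they were highest in KO 1 and lowest in KO 2, as were Kit, Spp1 and Sox9. Genes of other lists had this order too, such as Lmnb1 and Afp (2.48 and 0.860 FPKM in KO 1 and KO 2, against 2.10 and 1.31 FPKM in WT 1 and WT 2). The share of all genes with this order was not counted. The 12 endothelial markers summed to 92.3 FPKM in KO 1 and 48.7 FPKM in KO 2, against 67.0 FPKM in WT 1 and 63.0 FPKM in WT 2. The 13 stellate cell and fibroblast markers summed to 55.0 FPKM in KO 1 and 23.0 FPKM in KO 2, against 33.3 FPKM in WT 1 and 34.0 FPKM in WT 2. Most of this sum came from Dcn (17.5 and 7.02 FPKM in KO 1 and KO 2) and Ecm1 (27.3 and 10.5 FPKM). A mean under 1 FPKM was found for 8 of the 13, and Reln was higher in both WT libraries than in either KO library. For both sums KO 1 was the highest and KO 2 the lowest library, and no marker of either list was at 0 throughout. Single endothelial markers were divided. Stab1 and others had the order of the sum. Pecam1 and Cdh5 were highest in WT 2, and Clec4g and Fcgr2b, with others, were lowest in WT 2. The part of mast, mesothelial, endothelial or stellate cells in the values of Kit, Spp1 and Sox9 was not tested.

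Between genotypes the endothelial list had 7 of 11 tested genes higher (median 0.060) and the stellate list 3 of 5 (median 0.084), with 0 past the adjusted threshold in either. The named genes were, for endothelium, Fcgr2b (0.45), Clec4g (0.43), Pecam1 (-0.41) and Cdh5 (-0.27), and for stellate cells and fibroblasts Reln (-0.62), Dcn (0.38), Hgf (-0.22) and Rgs5 (0.14). Each of these values moved with the library left out: without KO 1 the difference was 0.064 for Fcgr2b, -0.11 for Clec4g, -0.22 for Dcn and 0.012 for Rgs5, without KO 2 it was -0.045 for Pecam1, 0.012 for Cdh5 and -0.0020 for Hgf, and without WT 2 it was -0.33 for Reln.

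**Figure D4:**
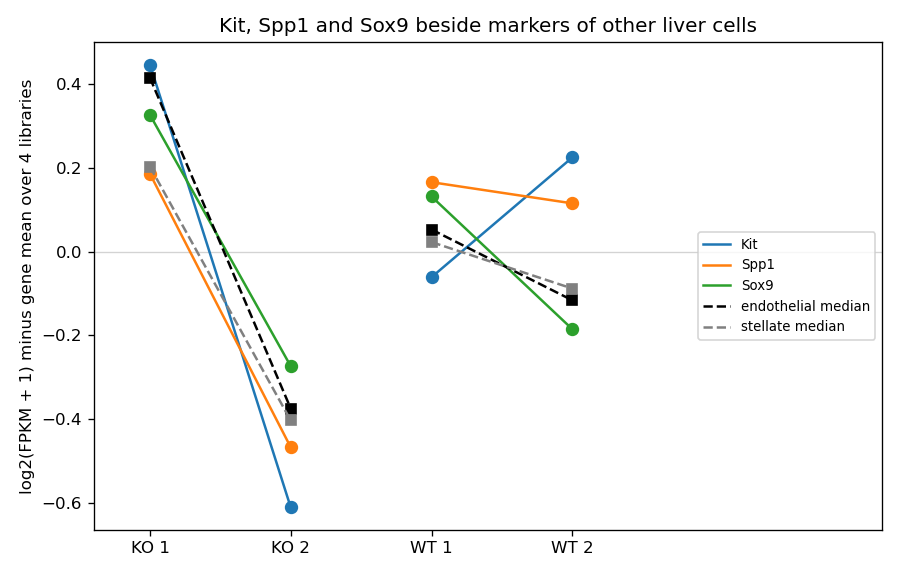
Kit, Spp1 and Sox9 (circles) and the medians of 11 endothelial and 5 stellate cell markers (squares, dashed) in each library, as log2(FPKM + 1) minus the gene's mean over the 4 libraries; lines join the libraries of a genotype. All 5 are above 0 in KO 1 and below 0 in KO 2, while the WT libraries lie between -0.18 and 0.22.

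The gene closest in its pattern over the 4 libraries was sought for each tested member among 112 other tested genes of all lists, by Euclidean distance between mean-centred log2(FPKM + 1) values. Itgb5 was nearest to Krt8 (0.0775) and to Krt18 (0.0702), and Krt8 came next for Krt18 (0.117). The nearest genes were the lamin gene Lmnb1 for Sox9 (0.0554), the endothelial cadherin gene Cdh5 for Spp1 (0.165), Anxa3 for Cd44 (0.225) and the endothelial scavenger receptor gene Stab1 for Kit (0.321). With 4 libraries these distances describe likeness only.

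Hepatocyte markers were abundant in all libraries, with Apoa1 at 5831 and 5733 FPKM in KO 1 and KO 2, against 5505 and 6228 FPKM in WT 1 and WT 2. Of 15 tested, 5 were higher and 10 lower in KO (median -0.039; 0 past the adjusted threshold). Hnf4a, the transcription factor that maintains hepatocyte identity, stood at 64.9 and 59.5 FPKM in KO 1 and KO 2, against 90.4 and 95.8 FPKM in WT 1 and WT 2 (log2 difference -0.58, SE 0.10; limma unadjusted p = 0.00134, adjusted p = 0.470). An antisense gene, Hnf4aos, is annotated beside it, and without a known strand setting its reads may be mixed in. The urea cycle gene Cps1 (-0.61) and the fibrinogen gene Fgb (-0.54) had overlapping libraries. Without WT 2 the difference was -0.21 for Cps1 and -0.086 for Fgb, and without KO 1 that of Cps1 was -0.225. Alb was listed at 0 in WT 2 against 27103 FPKM in WT 1, a listing that can stand for a failed estimate, and its difference was not read.

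**Figure D5:**
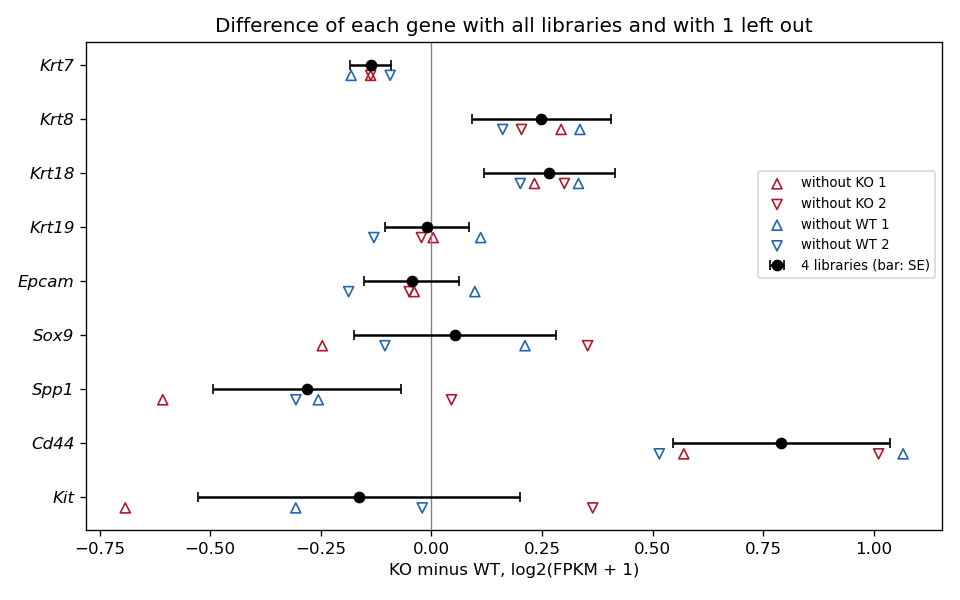
Difference between KO and WT in log2(FPKM + 1) for the 9 genes; black points with bars are the estimates from 4 libraries and their SE, and open triangles are the estimates with 1 library left out. Krt7, Krt8, Krt18 and Cd44 keep their side of 0 in all 4 reduced sets and Krt19, Epcam, Sox9, Spp1 and Kit each cross it in at least 1. The libraries of Krt7, Krt8, Krt18 and Cd44 do not overlap between genotypes, so these genes could not cross 0 here.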

How the data were processed

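RNA of 4 libraries of mouse primary hepatocytes, 2 KO and 2 WT, was sequenced with a stranded mRNA kit, per the labels' protocols. The authors deposited 1 FPKM value per gene and library; the unit was read from the tools and the values, since no header states it. Per the submitters' processing notes the tools were Cufflinks, Cuffdiff 2.2.1 and STAR 2.5.0 and the build was mm10; their roles, the annotation and the strand setting are not stated.

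Columns were matched to samples by title. Of 22079 identifiers, 21984 matched GENCODE M21, which annotates mm10. Depth was estimated from the steps of low values in genes with 1 annotated transcript, assuming fragments of 200 bases. The steps were only weakly whole, so depths and fragment numbers are rough. Fragment numbers of a member assume its longest annotated coding transcript and would be lower on a shorter one. Values were transformed as log2(FPKM + 1). Genes averaging 1 FPKM or more were compared by limma 3.58.1 in R 4.3.3 (eBayes with an intensity trend, two-sided, Benjamini-Hochberg over all genes tested), with genotype as the only term. The method had first been run on simulated data with independent normal noise. Such data cannot show how it handles failed estimates or shifts shared by many genes of a library. Intervals are 95% from limma's moderated spread. Nothing in the labels says that replicate numbers pair the libraries.

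Members and the 13 other gene lists were chosen with earlier results of these data known. Named genes are all members, Prom1 and up to 4 tested genes with the largest absolute difference per list. The gene nearest in pattern to each tested member is named too. Outside that rule, after their values were seen, Krt5, Krtcap2, Lmna, Notch2, Jag1, Hes1, Rdx, Itgav, Itga5, Itgb5 and Kitl were named. So were Cd68, C1qa, C1qb, C1qc, Csf1r, Clec4f, Ecm1, Apoa1 and genes listed at 0. Alternatives covered the pseudocount, filter, scaling, trend, replicate block and each library left out.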

Additional observations from a re-analysis of the deposited data

How the results depend on the processing

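No gene passed the adjusted threshold with all 4 libraries, with a pseudocount of 0.1, without a filter, with a filter at 5 FPKM, after scaling to a common upper quartile or total, without the trend, or with the replicate block. With 1 library left out the count ran from 0 to 8 (5 without KO 1; 8 without WT 1, among them Alb, whose 0 in WT 2 can be a failed estimate), and the count at an unadjusted p under 0.05 from 318 (without WT 2) to 1227 (without KO 2), against 759. The block gave 1054 genes at an unadjusted p under 0.05; deviations of same-numbered libraries correlated at 0.151 over genes, and the libraries share only a number. Under the block Cd44 had a limma adjusted p of 0.201, its lowest over the alternatives run (highest 0.9999), and no member was called.

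Krt7, Krt8, Krt18 and Cd44 kept their direction in every alternative that gave a value. Their KO and WT libraries did not overlap, so leaving out 1 library or changing the pseudocount could not turn their sign. Keeping direction in those settings therefore adds nothing to the lack of overlap, found in 38.1% of all genes tested. Cd44 and Kit lay under the 5 FPKM filter. Krt19 turned to 0.029 with a pseudocount of 0.1. Leaving out 1 library turned the sign of 5 members: the differences ran from -0.13 to 0.11 for Krt19 (above 0 without KO 1 and without WT 1), from -0.19 to 0.098 for Epcam (above 0 without WT 1), from -0.25 to 0.35 for Sox9 (below 0 without KO 1 and without WT 2), from -0.61 to 0.045 for Spp1 (above 0 without KO 2) and from -0.69 to 0.36 for Kit (above 0 without KO 2). Among other named genes they ran from -0.52 to 0.38 for Afp, -0.053 to 0.12 for Tnfrsf12a, -0.027 to 0.51 for Dll4, -0.11 to 0.97 for Clec4g, -0.54 to 0.012 for Cdh5, -0.22 to 0.99 for Dcn and -0.021 to 0.31 for Rgs5. The cause was not tested. The difference between genotypes in the log2 ratio of Krt7 to Krt19 was -0.13 with a pseudocount of 1 and -1.01 with 0.1; both genes rest on few fragments, and depth limits these values and that of Epcam.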
